A study of Mus musculus with 47 samples.

Results

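The LXR pathway and cholesterol efflux genes described here were 8 genes chosen by symbol: the sterol receptors Nr1h3 (LXRα) and Nr1h2 (LXRβ), the efflux genes Abca1, Abcg1 and Apoe, the ubiquitin ligase gene Mylip, the cholesterol esterification gene Soat1 and the oxysterol synthesis gene Ch25h. All 8 were present among the 51912 genes of the primary macrophage tables and in every cell line table, the largest of which listed 23772 genes. The study asked how ZMYND8, a chromatin reader protein, shapes inflammatory gene expression in macrophages, and this group was read across its 12 mouse RNA-seq libraries.

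Of the libraries, 6 came from bone-marrow-derived macrophages (BMDMs) of C57BL/6 mice, grown with M-CSF. WT BMDMs came from Zmynd8 fl/fl littermates without Cre, and cKO BMDMs from Zmynd8 fl/fl mice with Lyz2-Cre, which recombines in the myeloid lineage and removes 2 exons, so both genotypes carried the floxed alleles. Each genotype was left non-treated (NT), given 100 ng/ml LPS for 6 h or given 20 ng/ml IL-4 for 6 h, and 3 biological replicates were mixed into each library. The other 6 libraries were labelled Raw264.7, a macrophage line established from a tumour of a male mouse, and carried lentiviral CRISPR knockouts: Zmynd8 KO alone, Zmynd8 KO given back WT Zmynd8 or the D/E-A mutant (acidic residues replaced by alanine), p65 KO alone, and p65 KO given back WT p65 or the K122R mutant. The p65 libraries were labelled as LPS treated, the study gives LPS for the WT Zmynd8 and D/E-A lines without dose or time, and the label of the Zmynd8 KO line states no treatment. The column used for WT p65 is headed only as WT with LPS, so unmodified Raw264.7 cells cannot be told apart from the WT p65 rescue.

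Every group was 1 library, so no difference below has a replicate check, and no p-value is given. In such bulk libraries fewer cells of a type and less RNA per cell cannot be told apart. Brackets hold 95% limits (Clopper-Pearson, exact) from how the reads of a gene divided between both libraries, and they cover counting error only. Total counts per library ran from 22597408 to 28386612 in the BMDMs and from 15127110 to 21042628 in the Raw264.7 libraries. Levels are CPM, the reads of a gene scaled to the same total in each library. A gene was called higher or lower at a fold of at least 1.2. Fold changes are on the scale of log2(CPM + 1) in the BMDMs and of log2(deposited value + 1) in the Raw264.7 libraries, where the deposited values are reads divided by a size factor and not CPM; both understate the change of low genes.

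LXRα and LXRβ are nuclear receptors that pair with the retinoid X receptor and are switched on by oxysterols, the oxidised derivatives of cholesterol. In macrophages they turn on genes that move cholesterol out of the cell, such as Abca1, Abcg1 and Apoe, and Mylip, whose product IDOL is a ubiquitin ligase that limits lipoprotein uptake. Macrophages that take up lipid faster than they export it become foam cells, and inflammatory signals are known to interfere with LXR target gene expression.

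The promoter windows of Abca1 and Ch25h are shown because Abca1 had the widest genotype difference of the group without treatment and Ch25h the widest with IL-4. RefSeq windows of 300 bases, from 250 before to 50 after each start on build GRCm38.p6, matched 7 of the 8 genes (10 windows); Abcg1 had none. The Abca1 window lies on chr4:53159846-53160145, minus strand, and capitals mark a CACGTG sequence (an E-box) and a 16-base stretch that differs at up to 3 of 12 fixed letters from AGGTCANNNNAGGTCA, the direct repeat bound by LXR with its partner. The Ch25h window lies on chr19:34475099-34475398, minus strand, and capitals mark its match to GGGNNNNNCC, a loose form of the NF-κB site.
Abca1: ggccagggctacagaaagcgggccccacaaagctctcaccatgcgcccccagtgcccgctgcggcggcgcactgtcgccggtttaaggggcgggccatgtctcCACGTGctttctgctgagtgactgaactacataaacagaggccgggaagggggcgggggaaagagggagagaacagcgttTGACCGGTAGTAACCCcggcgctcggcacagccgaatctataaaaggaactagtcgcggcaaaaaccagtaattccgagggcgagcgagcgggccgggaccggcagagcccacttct
Ch25h: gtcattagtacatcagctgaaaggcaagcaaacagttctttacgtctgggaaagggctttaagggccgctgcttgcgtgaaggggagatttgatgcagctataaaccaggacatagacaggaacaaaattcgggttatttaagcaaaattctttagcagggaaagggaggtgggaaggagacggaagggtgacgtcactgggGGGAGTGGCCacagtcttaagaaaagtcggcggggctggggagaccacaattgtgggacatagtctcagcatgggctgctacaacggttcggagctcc
Letters were searched on both strands. The LXR-like repeat of Abca1 spanned positions -67 to -52 from the start and its E-box positions -147 to -142, and these matches did not overlap. Of all 32851 windows, 21.9% held the repeat with up to 3 mismatches and 7.15% held CACGTG; among the 8 genes only Abca1 held either. No window of the group held the exact repeat (0.0152% of all windows) or the single site AGGTCA (16.3% of all windows). GGGNNNNNCC was found in all 7 genes with a window and in 50.8% of all windows, and in Ch25h it lay at -48 to -39. These matches are descriptions of letters in a window.

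All 6 macrophage markers (Adgre1, Csf1r, Cd68, Itgam, Fcgr1, Lyz2) were detected in each set of libraries, with summed levels of 9115 to 18297 CPM in the BMDMs. Nos2, induced by LPS, stood at 7472 CPM in WT LPS and 7391 CPM in cKO LPS against at most 8.74 CPM in the other BMDM libraries, and Arg1, induced by IL-4, at 1500 and 1541 CPM in the IL-4 libraries. Zmynd8 itself was 87.1 CPM in WT NT and 81.5 CPM in cKO NT, 79.0 and 86.8 CPM with LPS, and 128 and 151 CPM with IL-4, a level summed over the whole gene that does not check a deletion of 2 exons. The summed level of 8 neutrophil markers was 2.33 to 4.22 CPM in the NT and LPS libraries but 382 CPM in WT IL-4 and 514 CPM in cKO IL-4; the part of these cells in the IL-4 results was not tested. The NT, LPS and IL-4 pairs were deposited in separate tables, so treatment and table cannot be told apart. Xist, a transcript of female cells, stood at 740 CPM in WT NT and 323 in cKO NT. It stood at 246 and 429 CPM with LPS and at 1108 and 1057 CPM with IL-4, and its part in the genotype differences was not tested.

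Transcript length moved with genotype in the NT pair. When tested genes were divided by length into 5 equal classes, the median cKO against WT log2 fold change was 0.31 in the class with the shortest transcripts and -0.37 in the class with the longest. With LPS the same medians were -0.09 and 0.23, and with IL-4 they were 0.05 and -0.04. The longest annotated transcripts of the group are 10262 bases for Abca1, 8371 for Soat1, 5832 for Abcg1, 3065 for Mylip, 1999 for Nr1h2, 1985 for Nr1h3, 1408 for Apoe and 1387 for Ch25h. Genotype differences are also given below relative to the median of the length class of the gene where that bears on a call; the part of length in them was not tested.

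**Figure D1:**
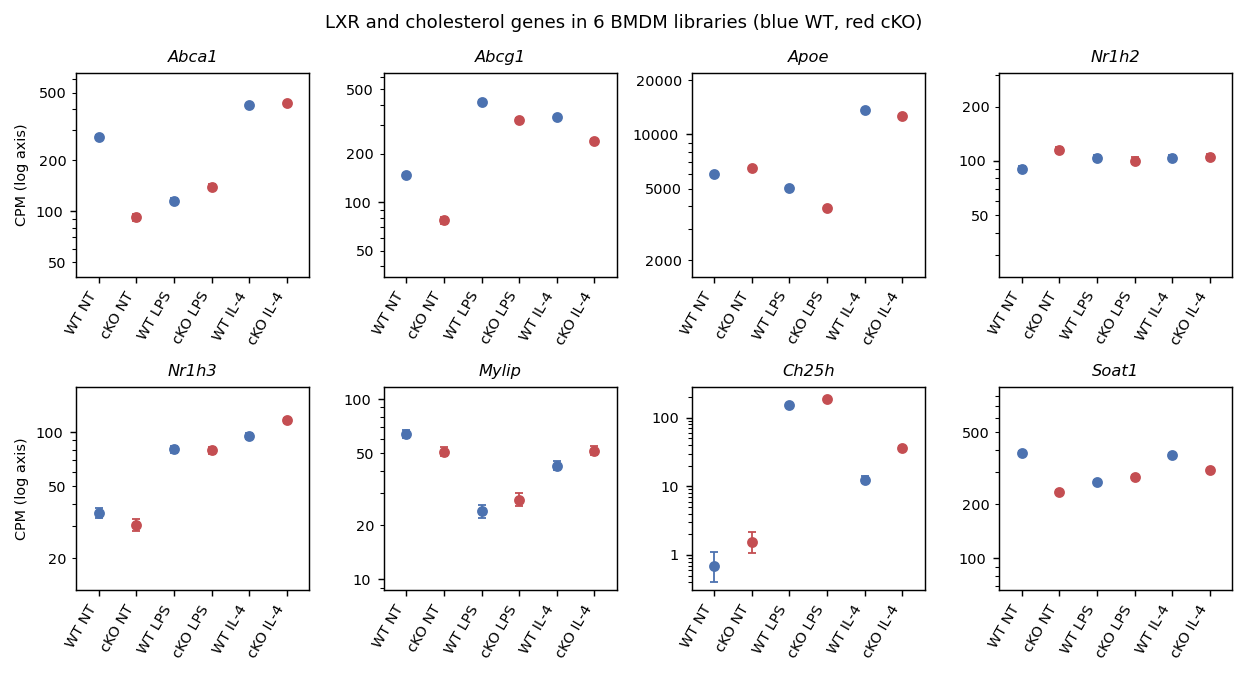
Level of each gene in CPM (log axis) in the 6 BMDM libraries, blue for WT and red for cKO, 1 point per library with exact 95% Poisson limits (counting error only). Abca1 was lowest in cKO NT at 91.9 CPM and highest in cKO IL-4 at 435 CPM, and Ch25h ran from 0.687 CPM in WT NT to 189 CPM in cKO LPS.

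Per transcript length, Apoe was by far the most abundant of the group in BMDMs, with deposited TPM values from 8834 to 30471 and a median of 12440. Soat1 followed with a median of 144 TPM and Abcg1 with 117 TPM. Nr1h2 (91.4 TPM), Nr1h3 (72.5 TPM), Ch25h (31.1 TPM), Abca1 (29.0 TPM) and Mylip (21.3 TPM) had lower medians. Nr1h2, at 81.4 to 97.9 TPM, lay above Abca1 and Mylip in every library, whereas Nr1h3 (23.4 to 102 TPM) and Ch25h (0.88 to 245 TPM) crossed several others.

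Nr1h3, which encodes LXRα, the form known from liver, fat and macrophages, lies on chr2:91184061-91202829, minus strand (mm10). It stood at 35.7 CPM in WT NT, 30.7 CPM in cKO NT, 80.3 CPM in WT LPS, 79.4 CPM in cKO LPS, 95.7 CPM in WT IL-4 and 116 CPM in cKO IL-4. Both treatments thus gave higher levels than either NT library in both genotypes. LPS against NT differed by a log2 fold change of 1.15 [1.04, 1.26] in WT and 1.34 [1.22, 1.47] in cKO, and IL-4 against NT by 1.40 [1.29, 1.51] in WT and 1.88 [1.77, 2.002] in cKO. With TMM scaling the LPS values were 1.72 and 1.89, and relative to the length class 1.65 and 2.01. The limits of the WT LPS and cKO LPS levels overlapped. cKO against WT was -0.21 [-0.35, -0.07] without treatment, which was not called but was -0.34 relative to its length class and -0.55 from deposited TPM, both past the 1.2-fold line. With IL-4 it was 0.28 [0.20, 0.35], just past the line and under it relative to its length class (0.25), with median-ratio scaling (0.26) and from deposited TPM (0.24).

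Nr1h2, the receptor gene expressed in most tissues, lies on chr7:44549616-44553968, minus strand. It was the flattest of the 8, at 90.5 CPM in WT NT, 115 CPM in cKO NT, 104 CPM in WT LPS, 101 CPM in cKO LPS, 104 CPM in WT IL-4 and 105 CPM in cKO IL-4. Its highest level was 1.28 times its lowest, and in the order of levels the limits of cKO IL-4 and WT IL-4, of WT IL-4 and WT LPS, and of WT LPS and cKO LPS overlapped, while cKO NT lay above and WT NT below them without overlap. Only the NT pair gave a call, with cKO higher by 0.35 [0.27, 0.43]. Against genes of its length class the difference was 0.22 and from deposited TPM 0.07, both under the line. With TMM scaling LPS against NT was called higher in WT (0.78) and in cKO (0.36), and IL-4 against NT lower in cKO (-0.36).

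Abca1, the transporter that loads cholesterol onto lipid-poor apolipoproteins, lies on chr4:53030789-53159988, minus strand. It stood at 276 CPM in WT NT and 91.9 CPM in cKO NT, at 116 CPM in WT LPS and 140 CPM in cKO LPS, and at 421 CPM in WT IL-4 and 435 CPM in cKO IL-4. The NT pair was far apart, while the limits of the IL-4 pair overlapped. cKO against WT was -1.58 [-1.65, -1.51] without treatment, 0.27 [0.20, 0.34] with LPS and 0.05 [0.01, 0.08] with IL-4. Relative to its length class the NT difference was -1.20 and the LPS difference 0.04, so the NT call held and the LPS call did not; with TMM scaling the LPS difference was 0.23, also under the line. LPS against NT was -1.25 [-1.31, -1.19] in WT and 0.60 [0.52, 0.68] in cKO, and IL-4 against NT was 0.61 [0.57, 0.65] in WT and 2.23 [2.16, 2.30] in cKO. With TMM or median-ratio scaling LPS against NT was -0.67 or -0.64 in WT and 1.15 or 1.17 in cKO, and relative to its length class it was -0.46 and 0.83, where IL-4 against NT was 0.35 and 1.63. These responses share their NT libraries with the NT genotype comparison and are not separate observations.

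Abcg1, which passes cholesterol on to HDL particles, lies on chr17:31057694-31117984, plus strand. It stood at 147 CPM in WT NT, 77.4 CPM in cKO NT, 420 CPM in WT LPS, 325 CPM in cKO LPS, 336 CPM in WT IL-4 and 239 CPM in cKO IL-4. The cKO library was lower in all 3 pairs. The log2 fold change was -0.92 [-0.9998, -0.84] without treatment, -0.37 [-0.41, -0.32] with LPS and -0.49 [-0.53, -0.44] with IL-4, and relative to its length class it was -0.54, -0.59 and -0.45. Abcg1 was the only one of the 8 genes called lower in all 3 genotype comparisons, and it was so under every alternative that kept the 1.2-fold line. The summed macrophage markers were also lower in cKO in each pair (14179 against 17957 CPM without treatment, 9115 against 12738 with LPS, 14357 against 18297 with IL-4), a difference carried mostly by Lyz2, the locus of the Cre (7202 against 10950, 2892 against 6902 and 5245 against 8941 CPM). Without Lyz2 the other 5 summed to 6977 against 7007, 6223 against 5837 and 9112 against 9356 CPM, but single markers went both ways. Without treatment Cd68 was higher in cKO (2555 CPM in WT, 3466 in cKO). Itgam (862 and 525), Fcgr1 (788 and 448), Adgre1 (1072 and 872) and Csf1r (1731 and 1666) were lower. With LPS Adgre1 (1181 and 1737) and Itgam (479 and 757) were higher and Cd68, Fcgr1 and Csf1r lower. With IL-4 Adgre1, Cd68 and Fcgr1 were higher and Csf1r and Itgam lower. The part of these markers in the Abcg1 result was not tested. LPS gave higher Abcg1 in both genotypes, by 1.51 [1.45, 1.56] in WT and 2.06 [1.98, 2.13] in cKO, and so did IL-4, by 1.18 [1.13, 1.24] and 1.62 [1.54, 1.69]. With TMM scaling the LPS values were 2.09 and 2.61, and relative to the length class they were both 2.29 and the IL-4 values 0.92 and 1.01.

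Apoe, the apolipoprotein that macrophages secrete to accept cholesterol, lies on chr7:19696244-19699188, minus strand. It stood at 6003 CPM in WT NT, 6479 CPM in cKO NT, 5052 CPM in WT LPS, 3879 CPM in cKO LPS, 13637 CPM in WT IL-4 and 12615 CPM in cKO IL-4. The IL-4 pair was the highest and the LPS pair the lowest. IL-4 against NT was 1.18 [1.18, 1.19] in WT and 0.96 [0.95, 0.97] in cKO, and LPS against NT was -0.25 [-0.26, -0.24] in WT, not called, and -0.74 [-0.75, -0.73] in cKO. The cKO call was lost with TMM scaling (-0.18), with median-ratio scaling (-0.17) and relative to the length class (0.06), and in WT both scalings put Apoe higher with LPS (0.33 and 0.36) and deposited TPM put it lower (-0.33). The genotypes were within 1.2-fold of each other in the NT pair (0.11) and the IL-4 pair (-0.11), and cKO was lower with LPS at -0.38 [-0.39, -0.37].

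Mylip, the IDOL gene, lies on chr13:45389742-45411940, plus strand. It stood at 64.3 CPM in WT NT, 51.0 CPM in cKO NT, 23.9 CPM in WT LPS, 27.7 CPM in cKO LPS, 42.7 CPM in WT IL-4 and 51.8 CPM in cKO IL-4. LPS libraries were lowest in both genotypes, with LPS against NT at -1.39 [-1.53, -1.26] in WT and -0.85 [-0.99, -0.72] in cKO. Relative to its length class these were -0.79 and -0.24, the latter not called, and with TMM scaling -0.82 and -0.31. For genotype, cKO against WT was -0.33 [-0.44, -0.22] without treatment (-0.58 from deposited TPM), 0.21 [0.05, 0.37] with LPS and 0.27 [0.16, 0.38] with IL-4. The IL-4 call lay just past the line and was lost with median-ratio scaling (0.25), TMM scaling (0.26) and deposited TPM (0.23), which put the LPS difference past the line (0.27). IL-4 against NT was called lower in WT at -0.58 [-0.68, -0.47] and not called in cKO at 0.02 [-0.09, 0.13], where deposited TPM gave 0.26, just past the line.

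Soat1, which esterifies cholesterol for storage in lipid droplets, lies on chr1:156428108-156474328, minus strand. It stood at 386 CPM in WT NT, 233 CPM in cKO NT, 266 CPM in WT LPS, 282 CPM in cKO LPS, 376 CPM in WT IL-4 and 308 CPM in cKO IL-4. As with Abca1, the untreated cKO library was the lowest of the 6. cKO against WT was -0.73 [-0.77, -0.68] without treatment, 0.08 [0.03, 0.13] with LPS and -0.28 [-0.33, -0.24] with IL-4. Relative to its length class the NT difference was -0.35 and the IL-4 difference -0.25, the latter under the line, whereas from deposited TPM the NT difference was -1.45. LPS against NT was -0.53 [-0.58, -0.49] in WT and 0.28 [0.22, 0.33] in cKO, and IL-4 against NT was -0.04 [-0.08, 0.00] in WT and 0.40 [0.35, 0.45] in cKO. Relative to the length class IL-4 against NT in WT was -0.30, past the line, and in cKO -0.20. With TMM scaling the LPS values were 0.05 and 0.83 and the IL-4 value in cKO 0.18, and from deposited TPM LPS against NT in cKO was 1.19.

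Ch25h, whose enzyme makes 25-hydroxycholesterol, lies on chr19:34473783-34475135, minus strand. It had 18 estimated counts in WT NT and 35 in cKO NT, or 0.687 and 1.55 CPM. Levels were 154 CPM in WT LPS, 189 CPM in cKO LPS, 12.5 CPM in WT IL-4 and 35.8 CPM in cKO IL-4. The gene was near the floor without treatment, intermediate with IL-4 and high with LPS. LPS against NT was 6.53 [6.22, 6.79] in WT and 6.22 [5.91, 6.52] in cKO, the widest treatment differences of the group, and IL-4 against NT was 3.01 [2.67, 3.29] and 3.85 [3.53, 4.16]. The cKO library was the higher of each pair, although the limits of the NT levels overlapped: by 0.60 [0.16, 0.99] without treatment, 0.29 [0.23, 0.35] with LPS and 1.44 [1.28, 1.61] with IL-4, the last a 2.72-fold difference. The LPS response markers moved with the IL-4 difference, with a summed level of 78.2 CPM in WT IL-4 and 287 CPM in cKO IL-4, and their part in it was not tested; without treatment they went the other way from Ch25h, at 89.8 and 36.8 CPM. With a pseudocount of 0.1 in place of 1, LPS against NT was 7.62 and 6.84, and IL-4 against NT 4.01 and 4.45. The NT genotype difference was 1.07 with that pseudocount and 0.28 relative to its length class. With TMM or median-ratio scaling the LPS difference was 0.25 or 0.24, just under the line.

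**Figure D2:**
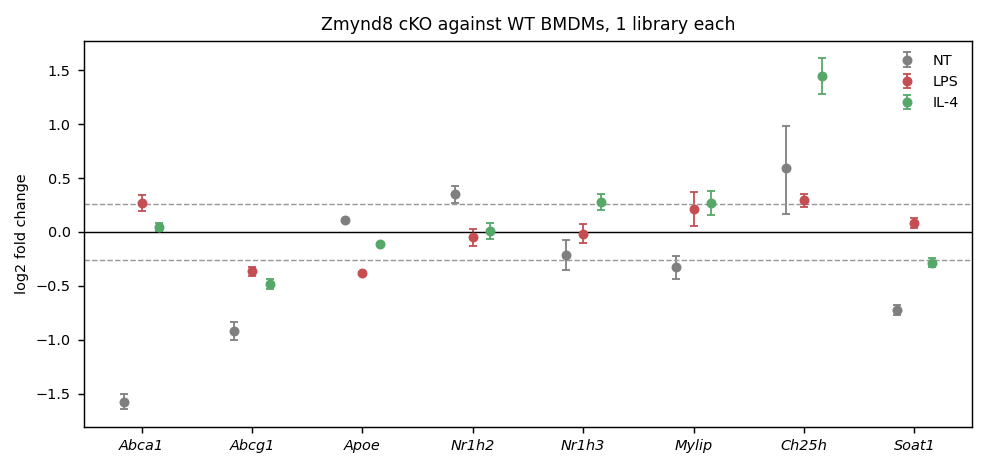
log2 fold change of cKO against WT for each gene without treatment (grey), with LPS (red) and with IL-4 (green), with 95% counting limits; dashed lines mark 1.2-fold. Abcg1 lies below the lower line in all 3 conditions (-0.92, -0.37 and -0.49), whereas Abca1 goes from -1.58 without treatment to 0.27 with LPS.

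Read as counts, the genotype comparison gave 2 genes higher and 4 lower without treatment, against a background of 25.0% and 29.0% of 12463 tested genes. With LPS it gave 2 higher and 2 lower (background 22.6% and 13.3% of 12386 genes). Both of these higher calls, Abca1 and Ch25h, were lost with median-ratio or TMM scaling. With IL-4 the comparison gave 3 higher and 2 lower (17.3% and 13.4% of 13245 genes). Across the 8 genes the middle log2 fold change was -0.27, 0.03 and 0.03 in these 3 comparisons, beside -0.01, 0.03 and 0.01 over all tested genes. With this many genes past 1.2-fold in the whole table, the counts alone do not set the group apart, and the description rests on the individual genes.

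**Figure D3:**
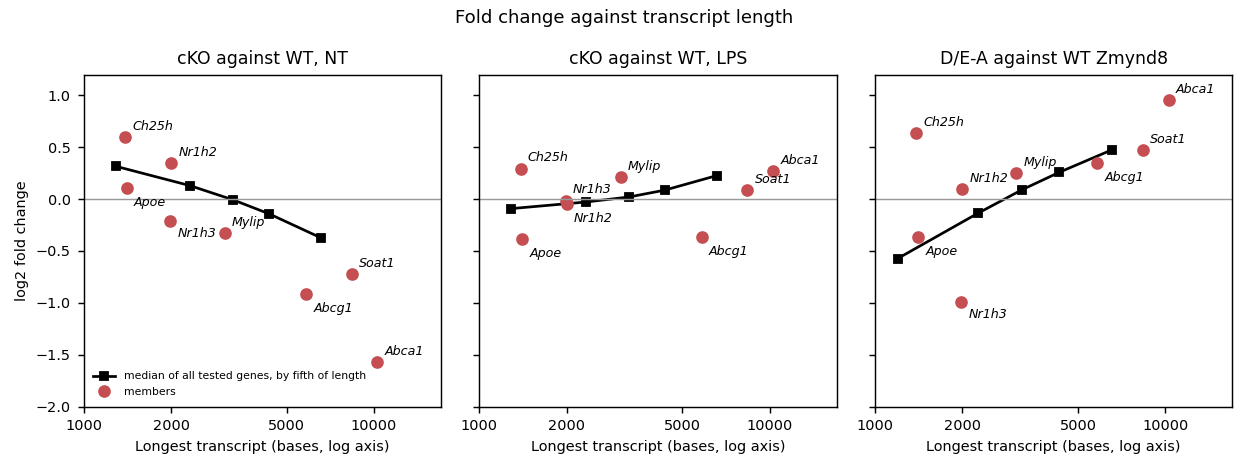
log2 fold change of each gene (red points) against the length of its longest annotated transcript (log axis), with the median of all tested genes in 5 equal length classes (black squares), for cKO against WT without treatment, with LPS, and D/E-A against WT Zmynd8. The medians run from 0.31 to -0.37, from -0.09 to 0.23 and from -0.57 to 0.48, and Abca1, Abcg1 and Soat1 lie in the class of the longest transcripts.

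The LPS comparison within WT BMDMs gave 3 genes higher (Ch25h, Abcg1, Nr1h3) and 3 lower (Mylip, Abca1, Soat1). The background was wide, with 21.7% of 12813 tested genes called higher and 63% lower. The median of all tested genes was -0.58 in WT and -0.55 in cKO, and TMM scaling brought it to -0.10 and -0.08; the group median was -0.02 and 0.44. The shares of all genes called were not recomputed with TMM scaling, so group counts are not given here on that scale. Under TMM scaling Soat1 in WT turned from -0.53 to 0.05 and Apoe in WT from -0.25 to 0.33. Nr1h2 went from 0.20 to 0.78 in WT and from -0.20 to 0.36 in cKO. Within cKO BMDMs LPS gave 5 genes higher and 2 lower, beside 25.0% and 60.5% of 12666 genes. Abca1 and Soat1 were called lower with LPS in WT and higher in cKO, and Apoe was called, as lower, in cKO alone; with TMM scaling Soat1 in WT and Apoe in cKO were not called lower. None of these differences between genotypes was tested, and they come from the same 4 libraries as the genotype comparisons.

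The IL-4 comparison gave 5 genes higher and 1 lower in WT, beside 41.3% and 23.1% of 13090 genes, and 6 higher and 0 lower in cKO, beside 44.7% and 26.2% of 12966 genes. With 1 library per group no test stands behind the count of 0. The group median was 0.90 in WT and 1.29 in cKO, beside 0.15 and 0.17 over all tested genes. Abca1, Abcg1, Apoe, Nr1h3 and Ch25h were called higher with IL-4 in both genotypes, and Nr1h2 in neither, although with TMM scaling Nr1h2 in cKO was called lower at -0.36.

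The wider pathway was followed through 5 lists of other LXR target genes, LXR partners, oxysterol genes, cholesterol uptake and storage genes, and the SREBP2 branch of cholesterol synthesis. In the NT pair 9 of 20 tested uptake, storage and transport genes were lower in cKO and 0 higher, 5 of 10 partners were lower and 1 higher, and 4 of 7 SREBP2 genes were lower and 0 higher; the list medians were -0.22, -0.31 and -0.28, beside 25.0% of all tested genes higher and 29.0% lower with a median of -0.01. Of the other LXR targets 2 of 12 were higher and 2 lower, and of the oxysterol genes 2 of 4 were higher and 0 lower. The LXR target Mertk, a receptor for dying cells, went from 98.8 CPM to 40.4 CPM (-1.27), Nceh1, a cholesteryl ester hydrolase, from 464 to 233 CPM (-0.99), and the co-repressor Ncor1 from 154 to 81.0 CPM (-0.91). Apoc2, an apolipoprotein gene of the same gene cluster as Apoe, was higher in cKO without treatment (7.17 CPM in WT and 25.1 CPM in cKO, 1.67), with LPS (0.65) and with IL-4 (14.5 and 73.3 CPM, 2.26). Gps2, a subunit of a co-repressor complex, and Hsd3b7, an oxysterol-clearing enzyme, were also higher without treatment, by 0.50 and 0.38.

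With LPS, Lpl (lipoprotein lipase, an LXR target) was higher in cKO at 726 against 415 CPM (0.81), as were Arl4c (0.74), the scavenger receptor Cd36 (0.68) and Ncor1 (0.58), which was lower in the NT pair. Nceh1 (-0.57), Stard5 (-0.43) and Scarb1 (-0.39), which hydrolyse, carry and take up cholesterol, were lower. Of the partners list 3 of 10 were higher and 0 lower, and of the SREBP2 list 3 of 7 were higher and 0 lower, beside 22.6% of all tested genes higher and 13.3% lower; these lists lay on the opposite side to the NT pair, as did the length trend. Other LXR targets gave 4 higher and 1 lower of 11, oxysterol genes 0 and 1 of 4, and uptake, storage and transport genes 4 and 5 of 22. With IL-4, Cyp27a1 (sterol 27-hydroxylase, -0.73), Nceh1 (-0.72) and Lrp1 (an endocytic receptor, -0.56, but 0.49 with LPS) were lower and Msr1 (a scavenger receptor, 0.60) higher. In that pair the counts higher and lower were 1 and 1 of 12 other LXR targets, 0 and 2 of 10 partners, 0 and 2 of 5 oxysterol genes, 1 and 6 of 22 uptake genes and 0 and 0 of 7 SREBP2 genes, beside 17.3% and 13.4% of all tested genes. Nceh1 was thus called lower in cKO in all 3 conditions.

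The wider lists also differed between treatments. Estimated counts of the oxysterol receptor gene Gpr183 were 813 in WT NT and 16 in WT LPS, and 904 in cKO NT and 22 in cKO LPS. Between NT and LPS, Lpl went from 5847 to 415 CPM in WT and from 5669 to 726 CPM in cKO, and the fatty acid synthase gene Fasn from 82.1 to 5.26 CPM and from 81.2 to 7.08 CPM. Of the SREBP2 list 6 of 7 genes were lower with LPS in both genotypes (medians -1.94 and -0.98), as were 4 of 4 oxysterol genes, and 8 of 11 other LXR targets in WT and 9 of 12 in cKO. Of all tested genes 63% were lower with LPS in WT and 60.5% in cKO, so the counts of other LXR targets lay near the background. Of the partners 1 was higher and 9 lower of 10 in WT (median -1.11) and 1 and 6 of 10 in cKO (median -0.49), and of the uptake, storage and transport genes 6 were higher and 12 lower of 21 in WT (median -0.57) and 7 and 10 of 22 in cKO (median -0.14), beside medians of -0.58 and -0.55 over all tested genes. Mertk (1.58 in WT, 2.81 in cKO) and the lipase gene Lipe (1.29 and 1.32) were higher with LPS, as were Stard3 (0.76 and 1.19) and the co-activator gene Ncoa1 (0.35 and 1.23). With IL-4, Mlxipl, which encodes the ChREBP factor, went from 1 to 448 counts in WT and from 0 to 434 counts in cKO, and Cav1 from 5.11 to 73.7 CPM and from 5.49 to 67.2 CPM. Arl4c (1.85 in WT, 1.60 in cKO) and Lipe (1.41 and 1.63) were higher in both genotypes. The desaturase genes Scd1 (-2.96 and -2.99) and Scd2 (-2.85 and -2.29) were lower in both genotypes, as were Gramd1b (-2.31 and -1.91) and the lipid droplet gene Plin2 (-1.99 and -2.15). With IL-4 in WT the counts higher and lower were 5 and 0 of 10 partners, 3 and 5 of 12 other LXR targets, 2 and 2 of 4 oxysterol genes, 6 and 11 of 22 uptake genes and 2 and 5 of 7 SREBP2 genes, beside 41.3% and 23.1% of all tested genes. In cKO they were 7 and 1 of 10 partners, 4 and 7 of 13 other LXR targets, 1 and 2 of 4 oxysterol genes, 7 and 8 of 21 uptake genes and 1 and 2 of 7 SREBP2 genes, beside 44.7% and 26.2%.

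Across the 6 BMDM libraries the genes with profiles most like each member, by root mean square difference of centred log2 levels over 9933 genes, were as follows. Abca1 was nearest to Amer1 (0.19), Nipbl (0.20) and Zeb2 (0.21), Abcg1 to H2-M3 (0.19), Elf4 (0.19) and Prex1 (0.20), and Apoe to Acad11 (0.080), Pld4 (0.083) and Bbc3 (0.10). Nr1h3 was nearest to Phf21a (0.14), Lipe (0.15) and Ccdc88b (0.16), and Nr1h2 to Sdf2 (0.045), Gm4332 (0.053) and Ino80c (0.059). Mylip was nearest to Zfp367 (0.036), Mzt1 (0.068) and Haus6 (0.069), Soat1 to Zcchc11 (0.053), Dyrk1a (0.081) and Zcchc9 (0.082), and Ch25h, at a larger distance, to Cd40 (0.46), Ptgs2 (0.52) and Socs1 (0.53). Amer1, for example, stood at 7.33, 2.96, 2.41, 3.41, 11.2 and 12.2 CPM in WT NT, cKO NT, WT LPS, cKO LPS, WT IL-4 and cKO IL-4, the same order of high and low libraries as Abca1 except that the lowest pair, cKO NT and WT LPS, was exchanged. Likeness over 6 libraries is a description only.

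The 6 Raw264.7 libraries fell into unlike sets before any comparison. The 3 Zmynd8 lines held Xist at 338 to 460 CPM, against at most 0.198 in the 3 p65 lines, and 8 neutrophil markers at a summed 4422 to 10353 CPM against at most 0.319. Xist is the transcript of the inactive X chromosome of female cells, so the Zmynd8 libraries went against their Raw264.7 label, and the lines are named by their labels only. Macrophage markers summed to 4238 to 8582 CPM in the Zmynd8 lines and 1395 to 1533 in the p65 lines. Rela, the p65 gene, was 102 CPM in WT p65, 351 in K122R and 50.6 in p65 KO; Zmynd8 was 26.4 in WT Zmynd8 and 27.7 in D/E-A, and its value in the Zmynd8 KO library did not come out as whole reads and was not used. The ribosomal entry Rn18s-rs5 took 13.7% of reads in WT Zmynd8, 11.1% in Zmynd8 KO and 6.50% in D/E-A.

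Levels of several members also differed between these sets. Apoe stood at 11957 CPM in WT Zmynd8, 9085 in D/E-A and 10976 in Zmynd8 KO, but at 9.13 in WT p65, 6.12 in K122R and 9.52 in p65 KO. Ch25h stood at 75.8, 116 and 104 CPM in the Zmynd8 lines, while the 3 p65 lines held 2, 1 and 0 reads, or 0.0632 CPM over all 3 with limits of 0.0130 to 0.185. Nr1h3 was 79.5, 39.0 and 50.9 in WT Zmynd8, D/E-A and Zmynd8 KO and 8.36, 12.1 and 13.4 in WT p65, K122R and p65 KO. Soat1 went the other way, at 63.1, 85.8 and 66.6 in the Zmynd8 lines and 611, 467 and 505 in the p65 lines. The ranges of Abcg1 overlapped between the sets, with 46.6 to 58.2 against 53.6 to 77.9 CPM. How many of all genes have ranges that do not overlap was not computed, so no count of members is given. These levels cross tables that were normalised apart and are set side by side only as CPM of each library.

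**Figure D4:**
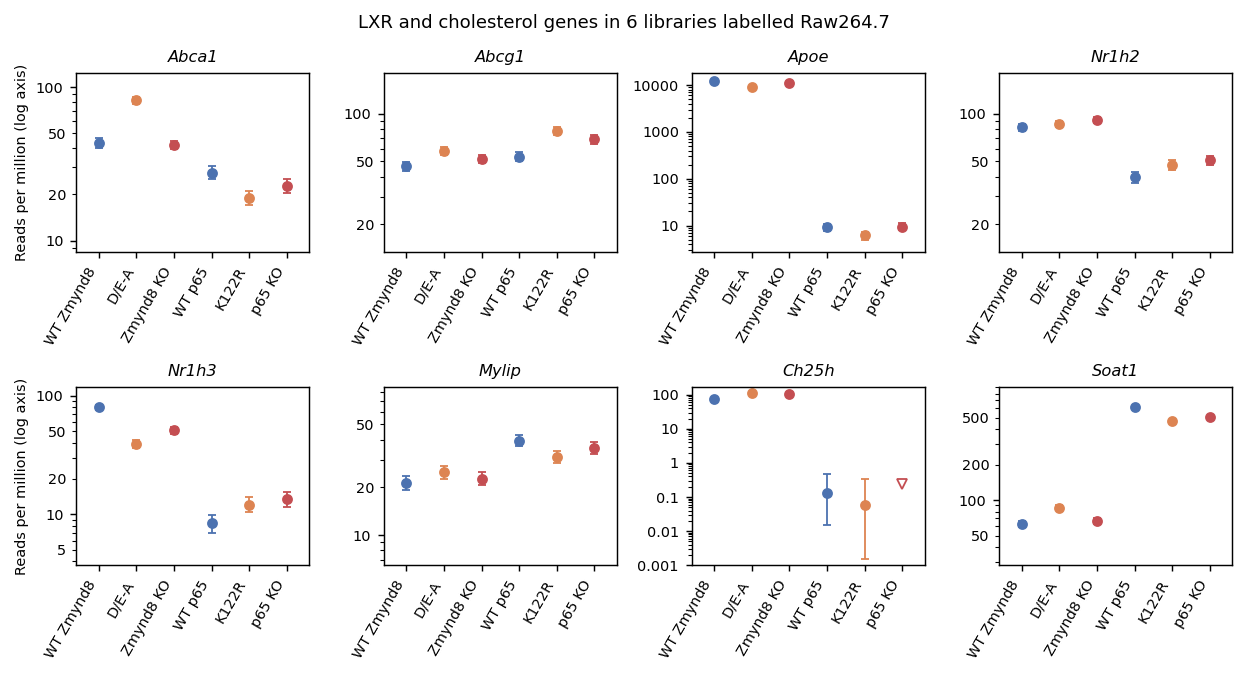
Level of each gene in CPM (log axis) in the 6 libraries labelled Raw264.7, 1 point per library with exact 95% Poisson limits; the open triangle is the upper limit of a library with 0 reads. Apoe and Ch25h are high in the WT Zmynd8, D/E-A and Zmynd8 KO libraries (Apoe 9085 to 11957). In the p65 libraries Apoe is low (6.12 to 9.52) and Ch25h near the floor. Soat1 is higher in the p65 libraries (467 to 611) than in the Zmynd8 libraries (63.1 to 85.8).

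D/E-A against WT Zmynd8, the comparison of the acidic-residue mutant with the intact protein, gave 4 genes higher and 2 lower, beside 36.7% and 35.9% of 12771 listed genes; this table lists only genes with at least 21 reads in WT Zmynd8. Abca1 was 82.0 CPM in D/E-A against 43.3 in WT Zmynd8, a log2 fold change of 0.95 [0.83, 1.08] on the deposited scale, and Ch25h was 0.64 [0.54, 0.74]. Nr1h3 was lower at -0.99 [-1.13, -0.86]. Soat1 (0.47), Abcg1 (0.35) and Apoe (-0.37) were called as well, but the median of all genes ran from -0.57 in the shortest length class to 0.48 in the longest, and relative to their own class these stood at -0.00, -0.13 and 0.21. Abca1 (0.47), Ch25h (1.21) and Nr1h3 (-0.86) kept their calls on that measure. Between WT Zmynd8 and D/E-A the neutrophil markers went from a summed 10353 to 4422 CPM, the macrophage markers from 4238 to 8582 CPM, and the 5 LPS response markers from 8896 to 11393 CPM. Among the last, Nos2 went from 500.0 to 2739 and Cxcl10 from 2555 to 3840 CPM, while Ccl5 went from 4381 to 3484 and Il1b from 1356 to 1209 CPM; their part in the result was not tested. Nr1h2 (0.09) and Mylip (0.25) were not called.

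Zmynd8 KO against WT Zmynd8 gave 1 gene higher and 1 lower, beside 33.8% and 36.5% of 21302 genes. Ch25h was higher at 0.52 [0.43, 0.62] and Nr1h3 lower at -0.57 [-0.68, -0.45], the same directions as in D/E-A, with which this comparison shares its WT Zmynd8 library. Abca1 had deposited values of 847 in Zmynd8 KO and 831 in WT Zmynd8, a difference of 0.03 with limits that include 0 [-0.11, 0.17], and as CPM the difference was -0.04. Between WT Zmynd8 and Zmynd8 KO the neutrophil markers went from 10353 to 6966 CPM and the macrophage markers from 4238 to 5577 CPM. The LPS response markers went from 8896 to 10134 CPM, with Nos2 at 500.0 and 1206, Cxcl10 at 2555 and 3836 and Ccl5 at 4381 and 3696 CPM; the label of the Zmynd8 KO line states no treatment, and the part of these markers in the result was not tested. Abcg1 (0.22), Soat1 (0.15), Mylip (0.17), Nr1h2 (0.22) and Apoe (-0.05) stayed within 1.2-fold, although Nr1h2 was past it relative to its length class (0.31). The group median was 0.30 in the D/E-A comparison and 0.16 in the Zmynd8 KO comparison, beside 0.02 and -0.03 over all genes.

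K122R against WT p65, in which a lysine of p65 known to be acetylated is arginine, gave 3 genes higher and 2 lower of 7 with enough reads, beside 30.8% and 32.5% of 19670 genes. On the deposited scale Abcg1 stood at 1322 in K122R against 824 in WT p65 (0.68 [0.56, 0.81]), Nr1h3 was 0.67 [0.35, 1.00] and Nr1h2 0.40 [0.25, 0.55], while Abca1 was lower at 322 against 427 (-0.40 [-0.62, -0.19]) and Apoe at -0.43 [-0.81, -0.06] on 143 and 102 reads. p65 KO against WT p65 also gave 3 higher and 2 lower of 7, beside 26.3% and 25.7% of 19879 genes. There Abcg1 was 0.36 [0.23, 0.49], Nr1h3 0.67 [0.35, 1.00] and Nr1h2 0.35 [0.20, 0.51], and Abca1 was -0.29 [-0.50, -0.09] and Soat1 -0.28 [-0.32, -0.23], both under the line with TMM scaling (-0.26 and -0.25). As CPM the K122R differences were 0.53 for Abcg1 and -0.53 for Abca1, Nr1h2 fell under the line (0.25), and Soat1 (-0.39) and Mylip (-0.33) passed it. On the deposited scale Mylip was not called in either (-0.19 and -0.15), nor was Soat1 in K122R (-0.24) or Apoe in p65 KO (0.06). Both comparisons share the WT p65 library, so they are not separate observations. The 5 LPS response markers summed to 6919 CPM in WT p65, 7226 in K122R and 6746 in p65 KO. In that order Nos2 stood at 218, 583 and 255 CPM, Il6 at 172, 259 and 80.2 and Il1b at 3761, 3196 and 2992. Ccl5 stood at 2485, 2881 and 3158 CPM and Cxcl10 at 283, 306 and 262, and the part of these markers was not tested. The group median was -0.19 for K122R and 0.06 for p65 KO, beside 0.01 over all genes in each.

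**Figure D5:**
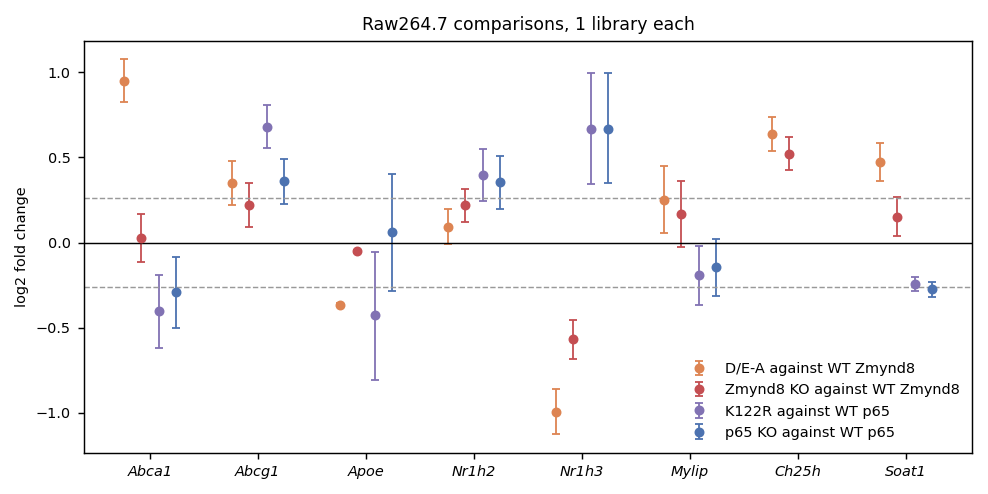
log2 fold change of each gene in the 4 Raw264.7 comparisons with 95% counting limits; dashed lines mark 1.2-fold and Ch25h has too few reads in the p65 lines for a value. Abca1 is higher in D/E-A (0.95), Nr1h3 is lower in both Zmynd8 comparisons (-0.99 and -0.57) and higher in both p65 comparisons (0.67 in each).

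In the wider lists, 13 of 22 uptake, storage and transport genes and 7 of 7 SREBP2 genes were called higher in D/E-A and 3 and 0 lower, beside 36.7% and 35.9% of all genes and the length trend of -0.57 to 0.48 given above, with Lrp1 (1.30) and the co-activator gene Ncoa6 (1.14) among the highest of all lists. Apoc2 (-1.77), Apoc1 (-1.62) and Gramd1c (-1.47) were lowest. Other LXR targets gave 6 higher and 3 lower of 12, partners 5 and 3 of 10 and oxysterol genes 1 and 2 of 5. In Zmynd8 KO 11 of 22 and 5 of 7 were higher and 1 and 0 lower, beside 33.8% and 36.5% of all genes. The medians of these lists were 0.26 and 0.45. By length class the median of all genes ran from -0.32 (shortest) to 0.21 (longest), and the part of length was not tested. Scap, which escorts SREBP proteins (0.83), and Cd36 (0.81) were among the highest. The lowest were Sult2b1 (-1.03 on 16 and 8 reads), Gps2 (-0.40) and Apoc1 (-0.29 on 60 and 53 reads). The limits of Sult2b1 and Apoc1 include 0. There other LXR targets gave 6 higher and 3 lower of 14, partners 3 and 1 of 10 and oxysterol genes 1 and 2 of 7. In K122R Soat2, another esterification gene (1.55), Hsd3b7 (1.05) and Abca7 (0.86) were highest and Scd1 (-1.02) and Stard4 (-0.72) among the lowest. There 12 of 20 uptake, storage and transport genes were higher and 3 lower (30.8% and 32.5% of all genes), against 5 and 4 of 20 in p65 KO (26.3% and 25.7%). The other counts higher and lower in K122R were 4 and 4 of 11 other LXR targets, 0 and 1 of 10 partners, 2 and 3 of 5 oxysterol genes (median -0.48) and 0 and 1 of 7 SREBP2 genes. In p65 KO they were 3 and 2 of 10, 1 and 4 of 10, 3 and 0 of 6 (median 0.53) and 0 and 0 of 7. In p65 KO Hsd3b7 (1.40 on 21 and 55 reads), Rxra (1.10 on 12 and 26 reads) and Cd36 (0.64) were highest. Ncoa1 (-0.58) and Lcat (-0.39 on 45 and 33 reads, with limits that include 0) were among the lowest.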

How the data were processed

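RNA was measured in 12 mouse libraries, 6 from BMDMs and 6 labelled Raw264.7; the other 35 samples of the series were not analysed here. The genes and gene lists were chosen with earlier results of these data known. BMDM reads had been aligned by the authors to mm10 (TopHat), and they deposited estimated counts and TPM values per gene, in 3 tables; the counter is not given in the sources used here. For the Raw264.7 lines the authors deposited a normalised signal, reads per gene divided by a size factor, in 4 tables each normalised apart. Whole reads were recovered from that signal for 100% of listed genes (tolerance 0.1 read), except Zmynd8 in the Zmynd8 KO library. Columns with the authors' own fold changes and p-values were not used, nor were 2 per-sample columns that no label matched.

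Estimated counts were divided by the library total (CPM). Fold changes were taken on log2(CPM + 1) where the mean count of the pair reached 10, and on log2(deposited value + 1) in Raw264.7 where the mean value reached 1. Each group was 1 library, so the comparisons had no replicates and no test over conditions was run; an additive model of genotype and treatment over the BMDM libraries was not run. A binomial test on the recovered or estimated reads compares 2 libraries and not conditions. At an adjusted p under 0.05 in this test together with a fold of at least 1.2, it called 5934 genes for cKO against WT without treatment, 3204 with LPS, 3208 with IL-4, 7857 for D/E-A, 6611 for Zmynd8 KO, 5215 for K122R and 2618 for p65 KO. PCR reads are not independent molecules. Named pathway genes were the 3 highest and 3 lowest called per comparison among listed genes whose mean reached 100 counts or a value of 10, and the nearest profiles were the 3 genes of smallest root mean square difference. Some genes that this rule named are not reported here. Alternatives were a pseudocount of 0.1, no filter, median-ratio and TMM scaling, deposited TPM, recovered CPM, a fold of 2, removal of Rn18s-rs5 and subtraction of the length-class median, with lengths from GENCODE. The scripts were tested on simulated data. Python 3.11.15, numpy 2.4.6, pandas 2.3.3, scipy 1.17.1, R 4.3.3 and edgeR 4.0.16 (TMM factors only) were used.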

Additional observations from a re-analysis of the deposited data

Results flagged for a closer look

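In 4 cases a gene was called in opposite directions by the same contrast in different conditions or genotypes. With 1 library per group none of these differences was tested. Abca1 was lower in cKO than in WT without treatment (-1.58) and higher with LPS (0.27), and correspondingly LPS against NT was -1.25 in WT and 0.60 in cKO; both rest on the same 4 libraries. The higher call with LPS was lost with median-ratio (0.22) and TMM (0.23) scaling and relative to the length class (0.04). Soat1 with LPS against NT was -0.53 in WT and 0.28 in cKO, from those libraries as well; the WT value was 0.07 with median-ratio scaling and 0.05 with TMM scaling. Mylip in cKO against WT was -0.33 without treatment and 0.27 with IL-4, a pair from another table; the IL-4 call was lost with median-ratio scaling (0.25), TMM scaling (0.26) and deposited TPM (0.23).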

How the results depend on the processing

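Of 446 recomputed values 270 lay within the counting limits of the reported value, 8 of the others turned the sign of a called value and 168 lay outside the limits otherwise. Counting uncalled values too, the sign differed in 34; those that gained a call were, for LPS against NT, Apoe in WT (0.33 with TMM and 0.36 with median-ratio scaling) and Nr1h2 in cKO (0.36 and 0.37, and 0.47 with the length median subtracted). Where a value below changed, the cause was not tested. The shares of all genes called were not recomputed for the alternatives below, so their counts have no background. At a fold of 2 the genes called numbered 1 for cKO against WT without treatment, 0 with LPS and 1 with IL-4, 3 for LPS against NT in cKO, and 0 each for D/E-A, Zmynd8 KO, K122R and p65 KO. For cKO against WT with LPS, median-ratio and TMM scaling each left 2 genes called, 0 higher and 2 lower. For cKO against WT with IL-4, median-ratio scaling and deposited TPM each left 3. TMM scaling left 3 for p65 KO. Subtracting the median of the length class, an alternative chosen after seeing the data, left 3 for cKO against WT with IL-4, 3 for D/E-A and 3 for p65 KO. Removal of Rn18s-rs5, also chosen after seeing the data, reversed no direction of a called gene but left Abcg1 in D/E-A uncalled at 0.20. Soat1 with LPS against NT in WT reversed to 0.074 with median-ratio scaling, 0.048 with TMM and 0.25 with the length median subtracted. Under that subtraction Apoe with LPS against NT in cKO became 0.063, Soat1 with IL-4 against NT in cKO -0.20, and in D/E-A Abcg1 became -0.13, Apoe 0.21 and Soat1 -0.0020. Of the 24 nearest profiles, 4 were also nearest by Pearson correlation. No paired analysis was possible because each group held 1 library, so that no 2 groups share 2 or more replicate numbers, and no replicate could be left out; a genotype model with treatment as a term was not run. Depth limits Ch25h without treatment and in the p65 lines, where counting error is wide.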
